A study of Mus musculus with 6 samples.

Results

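Integrins are the cell-surface receptors, each an alpha and a beta subunit, through which cells hold on to matrix, and laminins are the three-chain glycoproteins that build basement membranes and serve as ligands for several of those receptors. Genes of both families were taken by annotated symbol: Itga or Itgb followed by a subunit number or letter, or Lama, Lamb or Lamc followed by a number, using probe sets that name that gene alone. The rule found 35 genes among the 18193 named genes measured, namely 16 integrin alpha subunits, 9 integrin beta subunits and 10 laminin chains, covered by 76 probe sets. Itgbl1, Itgb1bp1, Itgb1bp2 and Itgb3bp carry similar symbols but encode an integrin-like or binding protein, and they were left out. Itga11 and Itgad were not analysed here.

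RNA was measured on Affymetrix mouse arrays in 3 groups of 2 arrays each: atrioventricular cushion of wild-type FVB/N mouse embryos at embryonic day 12.5 (E12.5 cushion), atrioventricular valve of the same strain at embryonic day 17.5 (E17.5 valve), and untreated cultured MC3T3-E1 subclone 4 cells, a pre-osteoblast line from mouse calvaria. By its title the study asks which expression programmes remodelling heart valves share with osteoblast progenitors. Each array took a pool of RNA and the duplicates are described as biological, and the MC3T3 group represents 1 subclone of 1 line. The deposited value is the ratio of a probe set to its median over the 4 valve arrays, so a log2 ratio of 0 marks that median. The ratios keep no level, so one gene cannot be set against another, and they do not tell whether a gene was above background.

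Laminin trimers self-assemble beneath endothelium, epithelium, muscle and nerve, where nidogens, perlecan and type IV collagen tie them into the basement membrane, and alpha 3, alpha 6 and alpha 7 integrins bind them from the cell side. Other integrins bind collagens (alpha 1, alpha 2 and alpha 10), RGD-containing proteins such as fibronectin and osteopontin (alpha 5, alpha 8, alpha v and alpha IIb), or cell-surface ligands on blood and endothelial cells (alpha 4 and the beta 2 group). In the developing valve, endocardial cells first transform into cushion mesenchyme within a loose, hyaluronan-rich matrix, which is later remodelled into layered leaflets, and integrins are the main receptors through which mesenchymal cells attach to such matrix.

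The libraries held more than cushion or valve mesenchyme. Mean log2 ratios over 18 cardiomyocyte markers were between -0.50 and 0.29 on the 4 valve arrays and -5.68 and -5.69 in MC3T3, with 9 of the 18 at the lowest deposited ratio on both MC3T3 arrays in every probe set, and endothelial markers (16 genes) averaged -3.33 and -3.34 in MC3T3. Osteoblast markers (7 genes) averaged 3.03 and 3.06 in MC3T3. Replicate 1 was at least 2-fold above replicate 2 for 5 of 9 erythroid and 3 of 10 platelet markers at E12.5, and for 9 of 10 hepatocyte markers at E17.5. In such bulk samples fewer cells of a type and less RNA per cell cannot be told apart. Among the 35 integrin and laminin genes the median gap between replicates was 0.12, 0.11 and 0.11 log2 units at E12.5, at E17.5 and in MC3T3, and the widest was 0.72, for Itgb2 at E12.5.

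**Figure D1:**
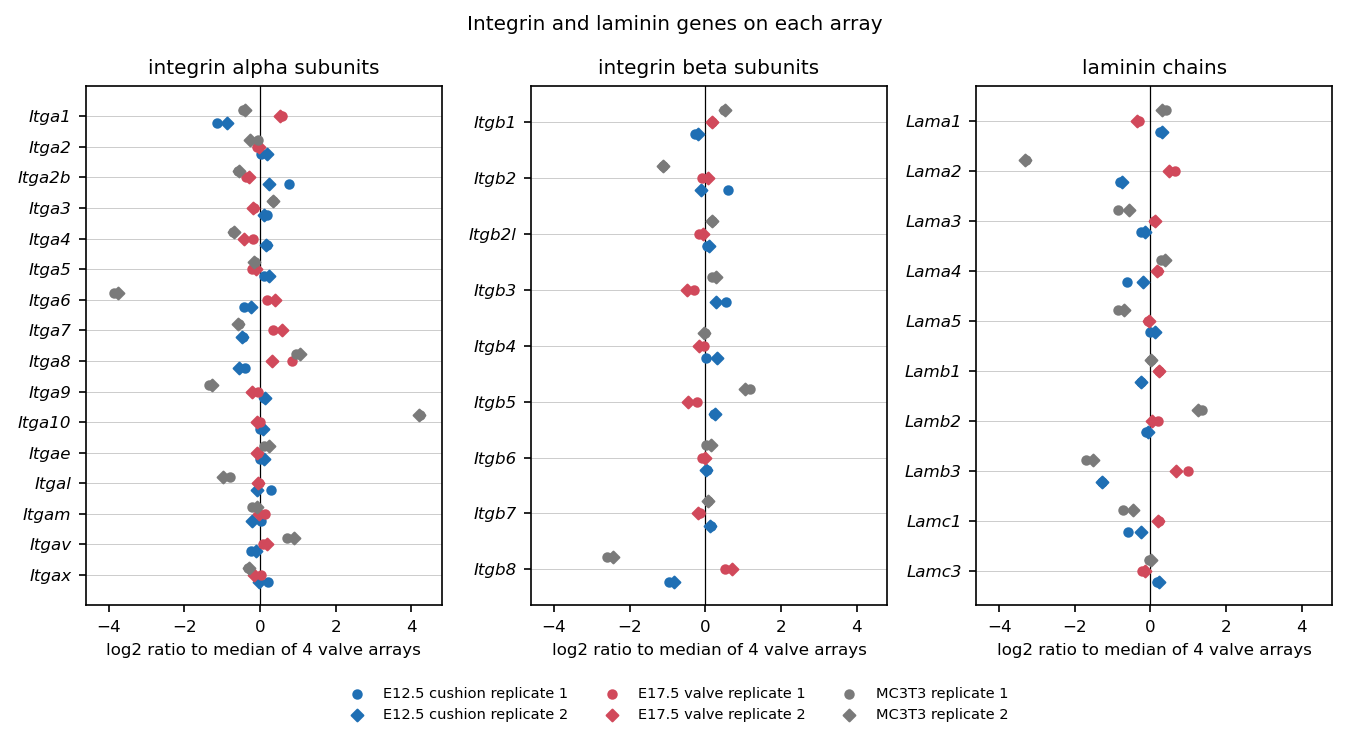
Log2 ratio to the median of the 4 valve arrays (horizontal axis) of each of the 35 genes on each of the 6 arrays, with circles for replicate 1, diamonds for replicate 2, blue for E12.5 cushion, red for E17.5 valve and grey for MC3T3. The MC3T3 points stand farthest out, at 4.230 and 4.197 for Itga10 and at -3.86 and -3.74 for Itga6, while the valve stages differ most for Lamb3, Itga1, Itgb8 and Lama2.

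Between the stages, 5 of the 35 genes rose from E12.5 to E17.5 and none fell by the rule of an adjusted p below 0.05 and at least a 2-fold difference: the laminin chains Lamb3 and Lama2 and the integrin subunits Itga1, Itgb8 and Itga8. Of all genes 4.67% rose and 1.84% fell by the same rule, 6.51% in either direction, in the limma fit across all genes with Benjamini-Hochberg adjustment, and 14.3% of the family rose. By the adjusted p alone 13 members rose and 10 fell, against 19.3% and 34.2% of all genes, and 11 were lower at E17.5 at an unadjusted p below 0.05. With each array centred on its median, which moves stage differences by 0.12, 83.5% of all calls were higher at E17.5 in place of 71.7%, and 6 members rose. The family's median difference, -0.12 on the log2 scale, was close to the -0.14 of all genes, whereas the 10 laminins had a median of 0.39 and 7 of them were higher at E17.5, and the 25 integrins had a median of -0.16.

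The 5 genes that rose are described with the RefSeq sequence before their start sites, since they are the members that passed both thresholds between the stages. Each stretch is the 250 bases upstream of the annotated start in build GRCm38.p6, written 5′ to 3′ on the gene's strand, with CpG dinucleotides in capitals. Lamb3 lies at chr1:193301744-193301993 on the plus strand (the first of 2 annotated starts), and on the minus strand lie Itga1 at chr13:115101965-115102214, Itgb8 at chr12:119238277-119238526, Lama2 at chr10:27616943-27617192 and Itga8 at chr2:12301945-12302194.
Lamb3: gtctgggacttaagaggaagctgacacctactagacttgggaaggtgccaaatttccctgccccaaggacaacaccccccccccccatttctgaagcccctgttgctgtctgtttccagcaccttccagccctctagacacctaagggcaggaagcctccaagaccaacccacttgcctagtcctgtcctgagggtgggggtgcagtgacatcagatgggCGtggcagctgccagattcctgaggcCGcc
Itga1: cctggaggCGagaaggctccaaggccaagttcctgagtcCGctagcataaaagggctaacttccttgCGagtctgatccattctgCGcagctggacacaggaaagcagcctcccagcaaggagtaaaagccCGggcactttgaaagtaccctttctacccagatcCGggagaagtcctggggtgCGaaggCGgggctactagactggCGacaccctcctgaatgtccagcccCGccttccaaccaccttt
Itgb8: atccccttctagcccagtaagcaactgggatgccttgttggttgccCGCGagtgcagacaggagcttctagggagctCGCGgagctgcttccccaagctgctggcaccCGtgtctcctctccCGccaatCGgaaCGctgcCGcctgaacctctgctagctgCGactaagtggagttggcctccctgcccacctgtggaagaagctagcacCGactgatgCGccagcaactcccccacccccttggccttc
Lama2: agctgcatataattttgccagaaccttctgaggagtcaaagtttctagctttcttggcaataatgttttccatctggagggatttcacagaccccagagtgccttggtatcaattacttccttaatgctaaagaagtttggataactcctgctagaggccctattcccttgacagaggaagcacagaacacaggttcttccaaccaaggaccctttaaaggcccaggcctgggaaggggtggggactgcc
Itga8: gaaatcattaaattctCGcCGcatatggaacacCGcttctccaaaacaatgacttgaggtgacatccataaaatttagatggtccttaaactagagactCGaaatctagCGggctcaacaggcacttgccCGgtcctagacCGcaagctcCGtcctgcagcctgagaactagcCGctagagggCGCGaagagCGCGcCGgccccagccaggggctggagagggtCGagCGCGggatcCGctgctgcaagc

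These windows differ in composition. Itga8 has 18 CpG, Itgb8 12, Itga1 10, Lamb3 2 and Lama2 none, with GC contents of 56.4%, 62.4%, 57.6%, 58.8% and 47.2%. Over the 32851 promoters of the RefSeq table the median was 6 CpG, and over the 26 windows of 23 members it was 8. On either strand, none of the 5 held the TATA box TATAAA, the GC box GGGCGG or the AP-1 site TGANTCA, which 12.4%, 32.7% and 6.75% of all promoters held. The letters CCAAT occurred once, in Itgb8, and in 33.8% of all promoters. None of the matches was tested as a site.

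Lamb3, the laminin beta 3 chain known from an epithelial laminin of skin and lung, changed most. Its log2 ratios were -1.28 and -1.28 in the cushion, 0.99 and 0.67 in the valve and -1.69 and -1.53 in MC3T3. Both E17.5 arrays stood far above the other 4, and the groups did not overlap. The stage difference was 2.11 ± 0.12 (limma standard error, adjusted p = 2.35e-05), a 4.31-fold rise. Lama3, an alpha chain of epithelial laminins, differed by 0.30 ± 0.11, as the mean of 2 unlike probe sets (0.705 and -0.1, neither past both thresholds). Epithelial markers (16 genes) averaged -0.04 and -0.31 at E12.5 and 0.05 and -0.02 at E17.5. Of these 1 rose (6.25%, beside 4.67% of all genes), the airway secretory gene Scgb3a2, at -3.03 and -3.50 against 1.07 and 0.91. Its part in the Lamb3 result was not tested.

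Lama2 encodes the alpha 2 chain of merosin, the main laminin around muscle fibres and Schwann cells. Its log2 ratios were -0.81 and -0.74 at E12.5, 0.66 and 0.49 at E17.5, and -3.28 and -3.31 in MC3T3. The groups formed a clear ladder without overlap, with MC3T3 lowest and E17.5 highest. Lama2 was 2.55-fold higher at E17.5 than at E12.5 (1.35 ± 0.09, adjusted p = 3.81e-05 in the limma fit). Lama4 and Lamc1, chains of endothelial and mesenchymal laminins, differed by 0.59 ± 0.13 and 0.63 ± 0.13, and Lamb1 by 0.48 ± 0.07, all higher at E17.5 and under 2-fold. Lama5 had values from -0.07 to 0.13 on the 4 valve arrays and differed by -0.12 ± 0.09 (adjusted p = 0.321). The other 3 chains differed by -0.62 (Lama1), -0.38 (Lamc3) and 0.21 (Lamb2).

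Some markers of cells that make such laminins rose too, where 4.67% of all genes rose. Cardiomyocyte markers averaged -0.50 and -0.48 at E12.5 and 0.29 and 0.26 at E17.5, and 6 of 18 rose. Endothelial markers averaged -0.28 and -0.36 at E12.5 and 0.16 and 0.30 at E17.5, and 3 of 16 rose. Of 9 glial and melanocyte markers 3 rose (Fabp7, Mlana and Mitf), but the median difference of that list was 0.05. Sox10, Pmel and Dct were among those with lower mean ratios at E17.5. The part of the cells that these lists mark in the laminin and integrin differences between the stages was not tested.

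Itga1, the alpha subunit of the collagen receptor alpha 1 beta 1, had log2 ratios of -1.15 and -0.86 at E12.5, 0.58 and 0.53 at E17.5 and -0.46 and -0.39 in MC3T3. The mean over its 2 probe sets put MC3T3 between the stages, but against E12.5 the probe sets differed in direction (0.24 and -1.39). The rise was 2.95-fold (1.56 ± 0.11, adjusted p = 4.38e-05 in the limma fit), and both probe sets of Itga1 passed, at 1.65 and 1.48. The other collagen receptor subunits, Itga2 and Itga10, differed by -0.16 and -0.07, neither past the adjusted p.

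Itgb8 pairs with alpha v in a receptor known for binding latent TGF-beta. Its log2 ratios were -0.95 and -0.83 at E12.5, 0.52 and 0.71 at E17.5 and -2.60 and -2.44 in MC3T3. The order was that of Lama2, MC3T3 lowest and E17.5 highest, with no overlap. The stage difference was 1.51 ± 0.10 (adjusted p = 4.18e-05), or 2.84-fold. Among the other beta partners of alpha v, Itgb5 and Itgb3 had lower ratios at E17.5, with differences of -0.58 ± 0.10 and -0.81 ± 0.12, both under 2-fold, and Itgb6 differed by -0.08 (adjusted p = 0.427). The alpha partner, Itgav, differed by 0.30 ± 0.10 (adjusted p = 0.0323).

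Itga8, the alpha subunit of the nephronectin receptor alpha 8 beta 1, had log2 ratios of -0.39 and -0.55 at E12.5, 0.83 and 0.31 at E17.5 and 0.96 and 1.07 in MC3T3. Its E17.5 replicates lay 0.53 apart, the widest gap in the family at that stage. The rise was 2.06-fold (1.04 ± 0.16, adjusted p = 0.00136 in the limma fit), and it fell under 2-fold without E17.5 replicate 1 (0.78), without E12.5 cushion replicate 2 (0.96) and without replicate 1 of both stages (0.86). In the first and last of these, Itga7, named here after its values were seen, passed instead, at 1.05 and 1.07. Itga7, a laminin receptor of muscle, was just under the fold threshold with all arrays, at 0.92 ± 0.10.

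**Figure D2:**
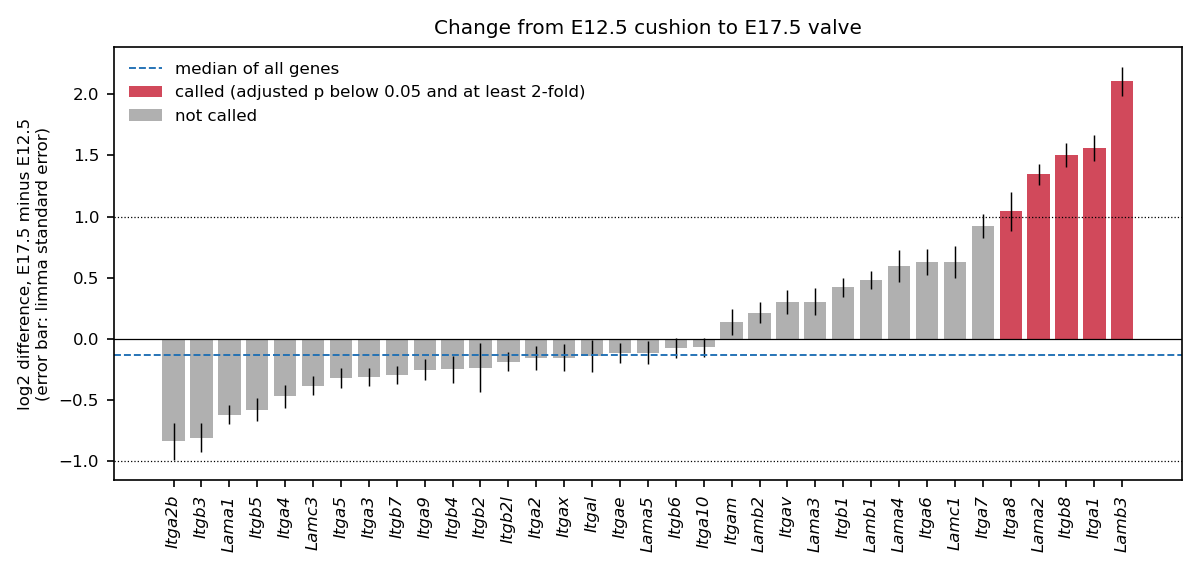
Log2 difference E17.5 valve minus E12.5 cushion for each of the 35 genes (vertical axis; error bars are limma standard errors), in order of size, with genes past both thresholds in red and the median of all genes as a dashed line. The 5 red bars run from 1.04 for Itga8 to 2.11 for Lamb3, and the grey ones from -0.84 for Itga2b to 0.92 for Itga7.

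The main integrin receptors for fibronectin and the widely shared beta 1 subunit stayed under 2-fold between the stages. Itga5, the alpha subunit of the classical fibronectin receptor, had log2 ratios of 0.10 and 0.23 at E12.5 and -0.22 and -0.10 at E17.5, a difference of -0.32 ± 0.08 (adjusted p = 0.0139). Itgb1 had -0.28 and -0.19 against 0.19 and 0.17, a difference of 0.42 ± 0.08 (adjusted p = 0.00271). That is a mean over 6 probe sets that ran from -0.12 to 0.93, none past both thresholds. Itga4, whose product binds VCAM-1 and fibronectin, had 0.19 and 0.16 against -0.18 and -0.41, a difference of -0.47 ± 0.09 (adjusted p = 0.00439). All 3 were separated between the stages without reaching 2-fold. Separation by itself was common: the arrays of the stages did not overlap for 30 of the 35 members and for 78.7% of all genes.

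The platelet integrin had its highest ratios at E12.5. Itga2b, the alpha IIb subunit that marks megakaryocytes and platelets, had log2 ratios of 0.76 and 0.24 at E12.5, -0.38 and -0.30 at E17.5 and -0.59 and -0.57 in MC3T3, and its partner Itgb3 had 0.56 and 0.28, -0.30 and -0.49, and 0.17 and 0.29. For both genes E12.5 replicate 1 was the highest of the 6 arrays, but for Itgb3 in only 1 of its 2 probe sets (0.99). The other was at 0.13 on that array, 0.21 on E12.5 replicate 2 and 0.36 on MC3T3 replicate 2. The stage differences of Itga2b and Itgb3 were -0.84 ± 0.15 and -0.81 ± 0.12, under 2-fold, with adjusted p of 0.00281 and 0.00101 in the limma fit. The Itgb3 probe sets differed by -1.18, past both thresholds, and by -0.45. The mean of 10 megakaryocyte and platelet markers was 1.13 and 0.31 at E12.5, -0.54 and -0.48 at E17.5 and -1.56 and -1.50 in MC3T3. Of these markers 7 fell between the stages, and 2 did so without E12.5 cushion replicate 1. With all arrays 1.84% of all genes fell. The part of these markers in the Itga2b and Itgb3 values was not tested.

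Among the 7 leukocyte subunits the stage differences ran from -0.30 to 0.14 and none passed both thresholds. At an unadjusted p below 0.05 in the limma fit, 2 were lower and 0 higher at E17.5, with no share of all genes beside them. Itgb2, the common beta chain of leukocyte integrins, had log2 ratios of 0.59 and -0.12 at E12.5, -0.08 and 0.07 at E17.5 and -1.11 and -1.11 in MC3T3. The stages overlapped, and E12.5 replicate 1 alone was high. Without that array the stage difference changed from -0.24 ± 0.20 to 0.12. Macrophage and leukocyte markers (19 genes) averaged 0.03 and -0.48 at E12.5, 0.13 and 0.08 at E17.5, and -2.14 and -2.11 in MC3T3. Between the stages 4 of them (Lyve1, F13a1, Mrc1 and Ptprc) rose, 21.1% beside 4.67% of all genes.

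**Figure D3:**
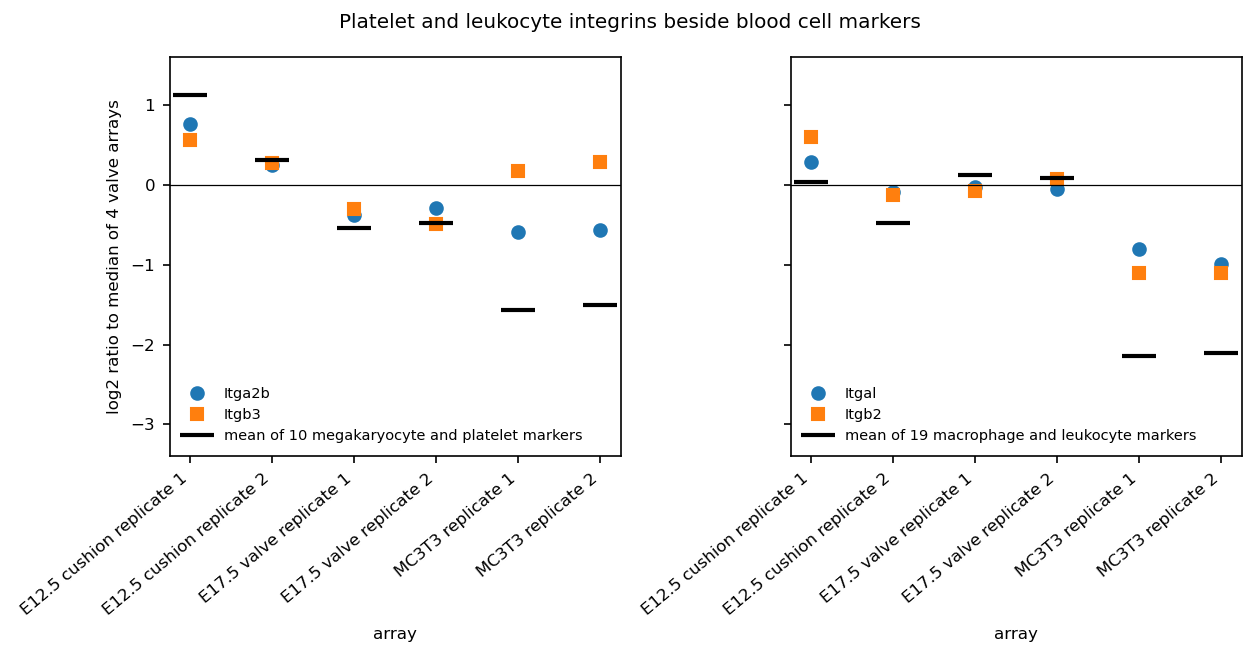
Log2 ratio to the median of the 4 valve arrays (vertical axis) on each of the 6 arrays, for Itga2b and Itgb3 beside the mean of 10 platelet markers (left) and for Itgal and Itgb2 beside the mean of 19 macrophage and leukocyte markers (right). Itga2b and Itgb3 are highest on E12.5 cushion replicate 1, at 0.76 and 0.56, where the platelet mean is 1.13, and Itgb2 is at -1.11 on both MC3T3 arrays.

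The 2 comparisons with MC3T3 share the MC3T3 arrays and are given side by side. At E12.5, 6 members were higher in the cushion and 3 in MC3T3 by both thresholds, against 10.2% and 10.8% of all genes. At E17.5, 7 were higher in the valve and 3 in MC3T3, against 9.78% and 7.94%. In either direction that was 25.7% of the family at E12.5, where 21.1% of all genes passed, and 28.6% at E17.5, where 17.7% did. Family medians were 0.18 and 0.11, beside 0.01 and -0.15 for all genes.

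Itga10, the alpha subunit of a collagen receptor best known from cartilage, was the member most tilted towards MC3T3. Its log2 ratios were 4.230 and 4.197 in MC3T3 and between -0.07 and 0.07 on the 4 valve arrays. No valve array came near MC3T3. The difference from MC3T3 was -4.18 ± 0.08 for the cushion (18.1-fold lower, adjusted p = 1.02e-08) and -4.25 ± 0.08 for the valve (19-fold lower, adjusted p = 8.23e-09) in the limma fit.

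Lamb2, the beta 2 chain of vascular and synaptic laminins, had log2 ratios of 1.37 and 1.26 in MC3T3, -0.13 and -0.06 at E12.5 and 0.19 and 0.06 at E17.5. Its differences from MC3T3 were -1.40 ± 0.09 at E12.5 and -1.19 ± 0.09 at E17.5. Itgb5, the vitronectin receptor subunit, had 1.17 and 1.06 in MC3T3, 0.22 and 0.27 at E12.5 and -0.23 and -0.44 at E17.5. It differed by -0.87 ± 0.10 at E12.5 and by -1.45 ± 0.10 at E17.5, where it passed the fold threshold. Itga8 was 2.80-fold higher in MC3T3 than at E12.5 (-1.49 ± 0.16, adjusted p = 9.43e-05) and 1.36-fold higher than at E17.5 (-0.44 ± 0.16). All of these genes were higher on both MC3T3 arrays than on any valve array.

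Itga6, the alpha subunit of laminin receptors on epithelium, endothelium and platelets, showed the widest difference in the other direction. Its log2 ratios were -3.86 and -3.74 in MC3T3, -0.41 and -0.24 at E12.5 and 0.20 and 0.41 at E17.5. The valve stages lay close together and MC3T3 far below. The gene was 11.1-fold higher at E12.5 (3.48 ± 0.11, adjusted p = 9.05e-08) and 17.2-fold at E17.5 (4.10 ± 0.11, adjusted p = 3.87e-08). Its partner in hemidesmosomes, Itgb4, differed by 0.18 and -0.07, neither past the adjusted p.

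Lama2 and Itgb8 were the only members called in all 3 comparisons, as 2.01% of all genes were. Lama2 was 5.75-fold higher at E12.5 and 14.6-fold at E17.5 than in MC3T3 (2.52 ± 0.09 and 3.87 ± 0.09), and Itgb8 3.09-fold and 8.78-fold higher (1.63 ± 0.10 and 3.14 ± 0.10). Lamb3 differed from MC3T3 by 0.33 ± 0.12 at E12.5 and by 2.44 ± 0.12 at E17.5, so its E12.5 ratios lay much nearer to those of MC3T3 than to those of the later valve. Itga9, a receptor subunit for tenascin-C and osteopontin, had log2 ratios of -1.34 and -1.26 in MC3T3, 0.10 and 0.14 at E12.5 and -0.04 and -0.22 at E17.5. As a mean over 3 probe sets it was higher than in MC3T3 by 1.42 ± 0.09 and 1.17 ± 0.09. The probe sets of Itga9 lay far apart, from 0.385 to 2.27 at E12.5 and from 0.061 to 2.32 at E17.5. In each comparison 2 of the 3 passed both thresholds. Endothelial, cardiomyocyte, macrophage and platelet markers had lower means in MC3T3 as well, and their part in these differences was not tested.

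Itga2b and Itgb2 were higher at E12.5 than in MC3T3 by 1.08 ± 0.15 and 1.34 ± 0.20, with adjusted p of 0.000432 and 0.000623 in the limma fit. Without E12.5 cushion replicate 1 they came to 0.82 and 0.98, under 2-fold. At E17.5 Itgb2 differed by 1.11 ± 0.20 (adjusted p = 0.00202) and Itga2b by 0.24 ± 0.15 (adjusted p = 0.205). Itga7, the seventh gene higher in the E17.5 valve, differed by 1.03 ± 0.10 there, by 0.90 without E17.5 valve replicate 2, and by 0.11 at E12.5.

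**Figure D4:**
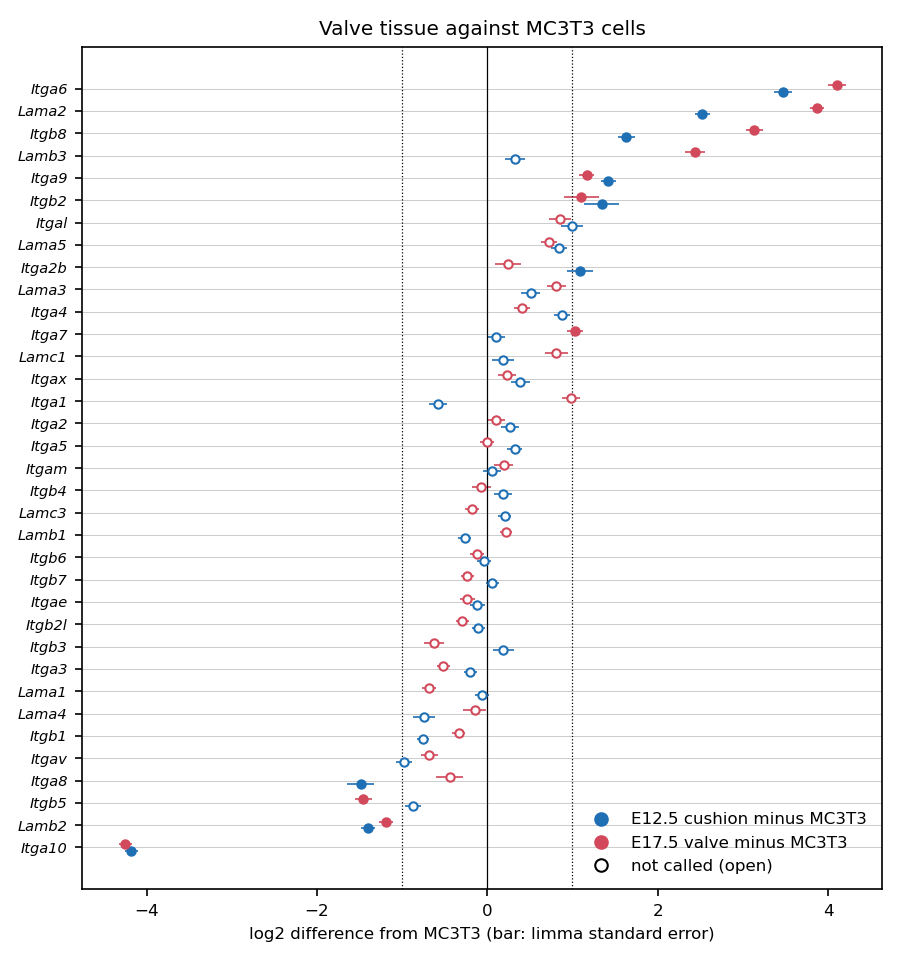
Log2 difference of E12.5 cushion (blue) and E17.5 valve (red) from MC3T3 for the 35 genes (horizontal axis; bars are limma standard errors), filled where both thresholds were passed. The comparisons share the MC3T3 arrays; Itga6, Lama2 and Itgb8 lie farthest right, at up to 4.10, and Itga10 alone lies beyond -4, at -4.18 and -4.25.

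Among the receptors that bind fibronectin and vitronectin, Itgav was at 0.72 and 0.90 in MC3T3, above every valve array, and differed by -0.98 ± 0.10 at E12.5 and -0.68 ± 0.10 at E17.5, both under 2-fold. Itgb1 was at 0.51 and 0.53 in MC3T3 and differed by -0.76 ± 0.08 and -0.33 ± 0.08. Itga5, at -0.14 and -0.17 in MC3T3, differed by 0.32 ± 0.08 and by 0.00 ± 0.08, and at E17.5 (adjusted p = 0.974) the arrays overlapped. Itgb3 differed by 0.19 ± 0.12 (adjusted p = 0.21) and -0.62 ± 0.12. Among the laminin chains, Lama4 was at 0.29 and 0.39 in MC3T3 (differences of -0.74 ± 0.13 and -0.15 ± 0.13), Lama5 at -0.87 and -0.69 (0.84 ± 0.09 and 0.72 ± 0.09), Lamb1 at 0.02 and 0.01 (-0.27 ± 0.07 and 0.22 ± 0.07), and Lamc1 at -0.73 and -0.46 (0.19 ± 0.13 and 0.81 ± 0.13). Of the 35 members, 22 passed both thresholds in no comparison, as did 73.6% of all genes.

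Probe sets of one gene did not always move together, and the mean used as the gene value hid some large differences. Of the 21 members with several probe sets, 2, 7 and 6 had probe sets at least 2-fold apart in the stage, E12.5 and E17.5 comparisons. The other 14 members had 1 probe set each, so no such check could be made. Among them were Lamb3, Lama2, Itgb8, Itga10, Lamb2, Itgb2, Itga2b and Itga7. One of the 5 probe sets of Itga4 fell by 1.26 between the stages and was above MC3T3 by 2.75 at E12.5 and 1.49 at E17.5, while the other 4 lay between -0.45 and -0.07 in the stage comparison. Of the 5 probe sets of Itgav, 2 passed both thresholds against MC3T3 at E12.5, at -1.92 and -1.74, and the other 3 lay between -0.65 and 0.02. The 2 probe sets of Itga1 rose together between stages but disagreed against MC3T3, at 0.24 and -1.39 for E12.5 and 1.88 and 0.08 for E17.5. Of the 3 probe sets of Lama5, 1 passed against MC3T3 at both stages, at 1.56 and 1.52, beside gene values under 2-fold. No member had probe sets called in opposite directions.

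**Figure D5:**
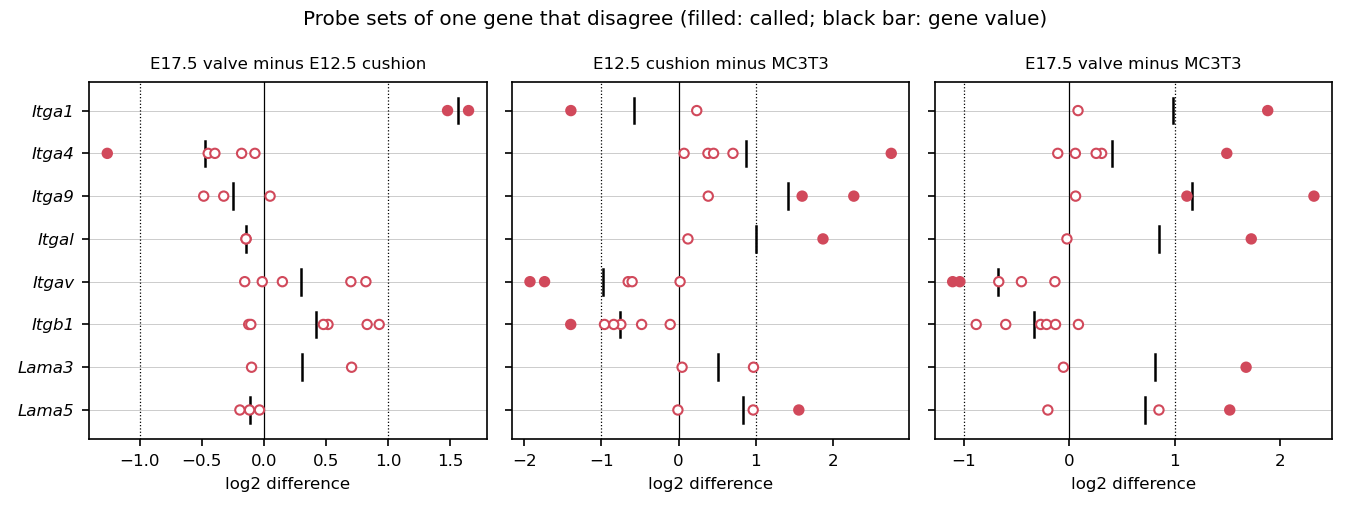
Log2 difference of every probe set (circles, filled where past both thresholds) in the 3 comparisons, for the 8 members whose probe sets lay at least 2-fold apart in any of them; the black bar is the gene value. In the middle panel 1 probe set of Itga4 stands at 2.75 and the gene value at 0.87.

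The partners of laminins in the basement membrane, a list of 37 measured genes, held 7 that rose between the stages (18.9%, beside 4.67% of all genes) and none that fell, with a median difference of 0.14 beside -0.14. At an unadjusted p below 0.05 in the limma fit, 16 were higher and 9 lower at E17.5, with no share of all genes beside them. The 7 that rose by both thresholds included the type IV collagen chains Col4a1, Col4a4 and Col4a5 and the basement membrane collagen Col15a1. The others were the matricellular protein Smoc1, and Sgcb and Dmd of the dystrophin complex that joins merosin to the cytoskeleton. Under 2-fold, and named after their values were seen, Col4a2 differed by 0.88 ± 0.07, Col18a1 by -0.75 ± 0.10 and Nid2 by -0.51 ± 0.08.

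Col15a1 had log2 ratios of -1.11 and -1.06 at E12.5, 0.60 and 0.64 at E17.5, and -0.47 and -0.52 in MC3T3, a 3.25-fold rise between stages (1.70 ± 0.08, adjusted p = 9.27e-06 in the limma fit). Against MC3T3, 11 of the 37 were higher and 7 lower at E12.5 (29.7% and 18.9%, beside 10.2% and 10.8% of all genes), and 16 higher and 5 lower at E17.5 (43.2% and 13.5%, beside 9.78% and 7.94%). Smoc2 (3.38 and 3.46) and Egfl6 (3.08 and 3.53) were among those higher at both stages. Gpc1, a heparan sulphate proteoglycan (-2.01 and -2.45), and the hemidesmosome linker Plec (-1.96 and -2.14) were lower.

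Among 33 measured ligands of integrins other than laminins, 14 rose between the stages (42.4%, beside 4.67% of all genes) and 1, Thbs1, fell (-1.17 ± 0.10), with a median difference of 0.64. Ccn3, a matricellular ligand, had log2 ratios of -2.60 and -2.86 at E12.5, 1.34 and 0.88 at E17.5, and 2.96 and 2.98 in MC3T3, a 14.3-fold rise (3.84 ± 0.16, adjusted p = 7.43e-06). The fibrinogen chains Fgg (3.42 ± 0.83) and Fga (3.10 ± 0.84) came next, but the E17.5 ratios of Fgg were 3.45 and 0.51, and hepatocyte markers, among them Fgg and Fgb, averaged 2.35 and 0.23 on the same arrays. The part of hepatocyte RNA in these was not tested. Of the 33 ligands 12 rose when E17.5 valve replicate 1 was left out. Fn1, the main ligand of alpha 5 beta 1, differed by -0.07 ± 0.08 between the stages.

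The ligands of several receptors above were higher in MC3T3. Npnt, the nephronectin bound by alpha 8 beta 1, had log2 ratios of 4.51 and 4.67 in MC3T3 and between -0.11 and 0.11 on the valve arrays, differences of -4.53 ± 0.09 and -4.65 ± 0.09. Ibsp, a bone sialoprotein bound by alpha v integrins, differed by -5.60 ± 0.10 and -5.51 ± 0.10, and Tnc, a ligand of alpha 9 beta 1, by -4.12 ± 0.13 and -2.96 ± 0.13. In total 6 ligands were higher at E12.5 and 10 in MC3T3 (18.2% and 30.3%, beside 10.2% and 10.8% of all genes), and 12 were higher at E17.5 and 9 in MC3T3 (36.4% and 27.3%, beside 9.78% and 7.94%). Icam2 (4.93 and 5.03) and Vwf (3.83 and 5.10), both made by endothelium, were higher in valve tissue.

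Of 34 measured adaptors and signalling partners that act on the cytoplasmic side or beside integrins, 2 rose between the stages and none fell, a share of 5.88% beside 4.67% of all genes, with a median difference of -0.12. At an unadjusted p below 0.05 in the limma fit, 9 were higher and 13 lower at E17.5, with no share of all genes beside them. The 2 that rose by both thresholds were Itgb1bp2, a muscle protein that binds the beta 1 tail (1.16 ± 0.09), and Lims1, the PINCH adaptor (1.04 ± 0.08). Against MC3T3, 5 were higher and 6 lower at each stage (14.7% and 17.6%), where 10.2% and 10.8% of all genes were at E12.5 and 9.78% and 7.94% at E17.5. Itgb1bp2 had log2 ratios of -0.61 and -0.75 at E12.5, 0.52 and 0.43 at E17.5 and -4.22 and -4.13 in MC3T3. Those of Ddr2, a collagen receptor kinase, were 2.71 and 2.59 in MC3T3 and between -0.26 and 0.34 on the valve arrays.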

How the data were processed

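Per the labels' protocols, pooled RNA was amplified with 2 kits (which samples had which is not stated) and hybridised in biological duplicate. The deposited values are linear ratios: per the submitters' processing notes the authors used RMA, and in the deposited table the 4 valve arrays give each of the 45101 probe sets a median of 1 (tolerance 1e-05), with a minimum of 0.01. The number of arrays limits the precision. Here 64 control probe sets, 932 naming several genes and 9160 unnamed ones were left out, leaving 34945 for 18193 genes. Names came from the platform annotation, and 18145 symbols matched RefSeq. Ratios were taken to log2 and averaged over a gene's probe sets. limma 3.58.1 (R 4.3.3, lmFit and eBayes, 3 residual and 4.57 prior degrees of freedom) was fitted to all 6 arrays with Benjamini-Hochberg adjustment over all genes; a call needs an adjusted p below 0.05 and 2-fold. On simulated data for the stage comparison (18193 genes), 66 of 67 genes changed 3-fold were called, 66 of 66 changed 8-fold and 0 of 67 changed 1.5-fold. A 1.5-fold change lies under the fold threshold. The simulated noise was independent between genes and arrays, so shifts shared by many genes on an array were not covered. The text names up to 6 members with the largest called differences each way in a comparison, a fixed set of 11 measured members, members whose probe sets disagree and up to 3 called genes each way of a pathway list; other members and pathway genes were named after their values were seen. Members and lists were chosen with earlier results of these data known. Replicate numbers were not taken as pairs: deviations of same-numbered arrays correlated at 0.15 between the valve stages and 0.06 and 0.02 with MC3T3. Alternatives covered probe set choice, array centring, the fold threshold, the fit and leaving out arrays; leaving out replicate 1 of both valve stages was added after the data were seen.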

Additional observations from a re-analysis of the deposited data

How the results depend on the processing

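Of 819 values of 21 named members under the alternatives, 783 kept their direction and their side of the thresholds, 18 gained a call, 7 lost one and 11 changed sign. Some alternatives could not move a difference: other eBayes settings, the block on replicate number, only the arrays compared, and leaving out an array of the group not compared. For members with 1 probe set, the probe set choice could not move it either. The 783 therefore include values whose direction and side of the fold threshold were fixed beforehand. With no fold threshold 13 members rose and 10 fell between the stages, and called members numbered 13 and 9 for E12.5 against MC3T3, and 14 and 12 for E17.5 against MC3T3. With the most variable probe set of each gene, 2 members were lower at E17.5 than at E12.5 (Itga4 and Itgb3), 6 were higher in MC3T3 than at E12.5 and 13 higher at E17.5 than in MC3T3; with every probe set its own item these were 2, 7 and 13. Leaving out single arrays gave 4 to 5 members higher and 0 to 1 lower at E17.5, 4 to 7 higher at E12.5 than in MC3T3 and 3 to 4 lower, and 7 to 8 higher at E17.5 than in MC3T3 and 3 lower. Signs turned between the stages for Itga10 (0.045 centred), Lama5 (0.002 centred), Itga9 (0.049, most variable probe set) and Itgb2 (-0.597 to 0.123 leaving out single arrays, the highest without E12.5 cushion replicate 1, and 0.197 without replicate 1 of both valve stages); for Itga1 at E12.5 against MC3T3 (from -0.58 to 0.24, most variable probe set); and for Itga5 at E17.5 against MC3T3 (0.121 centred, -0.061 to 0.054 leaving out single arrays, 0.054 without replicate 1 of both valve stages, 0.160 with the most variable probe set). For the probe set choice, and for the centring, which moves every gene by the same amount, the construction shows the cause. For the left-out arrays the cause was not tested.

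Centring each array on its median moved all genes by 0.12 between the stages and 0.13 for E17.5 against MC3T3, and raised the share of calls that are higher at E17.5 from 71.7% to 83.5% and from 55.2% to 63%; Itga7 then passed between the stages (1.04) and Itga1 for E17.5 against MC3T3 (1.11). The block on replicate number left the members' counts at 5 and 0, 6 and 3, and 7 and 3, for the stages, E12.5 against MC3T3 and E17.5 against MC3T3. Over all genes the stage counts of 850 and 335 became 3509 and 6231 with no fold threshold, 1498 and 529 with the most variable probe set, 1595 and 552 with every probe set its own item, and the lower calls became 211 with centring. Against MC3T3 the counts of 1862 and 1968 at E12.5, and 1780 and 1445 at E17.5, became 5341 and 5141, and 3880 and 7062, with no fold threshold. With every probe set its own item, 2212 genes had a called probe set that was higher in MC3T3 than at E17.5. With 2 arrays a group the spread is pooled over all groups, and a left-out array leaves a lone one assumed to vary like the rest.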

Other observations

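Among genes of other cell types that are not integrins or laminins, the valve mesenchyme list held genes that fell between the stages. Of its 11 measured genes, 6 fell between the stages (Twist1, Hapln1, Prrx2, Has2, Sox9 and Msx2) and 1, Postn, rose, with log2 ratios of -1.03 and -0.75 at E12.5 and 0.54 and 0.49 at E17.5. Among 9 measured glial and melanocyte markers 3 rose (Fabp7, Mlana and Mitf). Smooth muscle markers held 2 that fell, Tagln and Cnn1, of 10 measured. Of all genes, 4.67% rose and 1.84% fell by the same rule. The genes of these lists were named after their values were seen, and no share of them was tested against other lists.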
